A study of Mus musculus with 16 samples.

Results

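The 4 steps of dietary protein that were fed together with a high-fat background form a dose series of 8 hypothalamic RNA libraries, out of 16 in the study. Its members were taken from the sample labels: all libraries from mice fed 60% of energy as fat, at 1%, 2.5%, 5% or 20% of energy as protein, with 2 libraries, numbered replicate 1 and 2, at each protein level. All 8 came from the hypothalamus, cut whole from the brain. The mice were of the inbred strain C57BL/6N, and the labels name no transgene or drug. The other 8 libraries of the study came from the same protein levels fed with 20% of energy as fat, and they are used here only for comparison. The study's title ties very low protein to reduced food intake, weight loss and hypothalamic mTOR signalling, and the series here asks in which order, and at which protein level, hypothalamic transcripts changed. Age, sex and the number of animals behind a library are not given in the sources used here. Since the labels do not say that replicates were separate animals, p-values reflect the spread among these 8 libraries alone, and that spread may be technical. Total counts lay between 18314547 and 18511818 per library, 24323 of 47069 genes were counted at all in the 8, and 16284 were tested.

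The hypothalamus senses nutrients and hormones and governs feeding. In its arcuate nucleus, neurons that make neuropeptide Y (Npy) and agouti-related peptide (Agrp) drive feeding when energy stores are low, and neurons that make pro-opiomelanocortin (Pomc) and the CART peptide (Cartpt) restrain it; orexin (Hcrt) and melanin-concentrating hormone (Pmch) are feeding and arousal peptides of the lateral hypothalamus. Glucocorticoid hormones, which circulate at higher levels in fasting and stress, act through a nuclear receptor that switches on a well-known set of target genes in brain cells, among them Fkbp5, Sgk1, Ddit4 and the metallothioneins. mTOR is a kinase that couples amino acid supply to protein synthesis, and a shortage of amino acids also acts through the transcription factor ATF4 on genes of amino acid synthesis and transport.

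The tissue label was checked against marker genes. Of 18 genes that mark hypothalamic nuclei, 16 were tested, and their summed level was 271.7 and 319.7 CPM (counts relative to the TMM-scaled library size) in the libraries at 1% and 287.1 to 308.4 in the other 6. Neuronal markers summed to 2975 to 3321 CPM over the 8 libraries, and 2 of the 8 neuronal markers, Tubb3 and Nefl, had no count in any of them. Both are among 12 of 203 markers of all cell types that were at 0 in every one of the 16 libraries, Gfap, the best-known astrocyte marker, included. All 12 overlap another annotated gene, and a 0 there does not show that the cell type is absent. The libraries at 1% stood apart from the rest. Mitochondrially encoded transcripts made up 1.54% and 1.61% of their counts against 2.43% to 2.98% in the other 6, and their deviations from the mean of the series ran against gene length (Spearman -0.261 and -0.156 across genes, against -0.068 to 0.264 in the others). Diet codes in the sample titles began with D1412 at 1% and 2.5% and with D1407 at 5% and 20%. A difference between 2.5% and 5% and a difference between the diet code series therefore cannot be told apart. The contrasts of 1% against 20%, 1% against 5% and 2.5% against 20% cross the code series as well. Only 1% against 2.5% and 5% against 20% each lie within 1 series. Of the 20% fat libraries, the second at 1% and the second at 2.5% stood apart by markers of cortex and hippocampus: the 12 tested markers summed to 587 and 1025 CPM there against 275 to 352 in the other 14 of the study, and Slc17a7, a glutamate transporter gene of cortical neurons, had 5074 and 10337 counts against 1267 to 2513. Values that use them are given with and without both. In bulk tissue, fewer cells of a type and less RNA per cell cannot be told apart either, which holds for every value below.

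Nearly all calls fell in contrasts that include 1% protein. Between 1% and 20% protein, 4373 of 16284 genes (26.9%) passed the edgeR quasi-likelihood test at a Benjamini-Hochberg adjusted p of 0.05, 2019 higher (12.4%) and 2354 lower (14.5%) at 1%. Between 1% and 2.5%, which are adjacent levels, 4097 genes (25.2%) passed, 1890 higher and 2207 lower, and between 1% and 5% 2569 (15.8%), 1054 higher (6.47%) and 1515 lower (9.3%). By contrast, 2.5% against 20% called 4 genes (0.0246%), namely Hcrt, higher at 2.5%, and Lhx6, Lhx8 and Ppp1ca, lower (0.0184%). Of these calls, those for Hcrt, Lhx6 and Lhx8 did not hold in every fit that left out 1 library. The contrast of 5% against 20% called 5 (0.0307%), namely Mt1, Mt2, Gpd1 and Sdc4, higher at 5%, and Ppp1ca, lower. The contrast of 2.5% against 5% called 26 (0.16%), 3 higher (0.0184%) and 23 lower (0.141%) at 2.5%. The size of the steps followed the same order: the median absolute log2 difference over all tested genes was 0.081 from 20% to 5%, 0.091 from 5% to 2.5% and 0.190 from 2.5% to 1%. A step of more than 1 on the log2 scale was seen in 88, 150 and 411 genes respectively. Of the 2019 genes called higher at 1% than at 20%, 1833 had both libraries at 1% above all other 6 (19.8% of all tested genes did), and of the 2354 called lower, 2146 had both below them (20.5% of all). Since these genes were called on the same libraries at 1%, their separation describes them and is no test. The numbers of calls rest on the spread within the 8 libraries: with all 16 libraries in the fit, 816 genes passed for 1% against 20%, 197 for 1% against 2.5%, 18 for 1% against 5% and 0 for 2.5% against 5%. Without the 2 libraries with cortex markers, these counts were 2900, 2513, 638 and 2. The count for 1% against 20% was 2634 without the first library at 1% and 1863 without the first at 20%, that for 1% against 2.5% was 2247 without the first at 1% and 1377 without the second at 2.5%, and that for 1% against 5% was 434 without the second library at 5%. Leaving out the libraries at 1% altogether gave 10 calls for 2.5% against 20%, 8 for 5% against 20% and 48 for 2.5% against 5%.

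**Figure D1:**
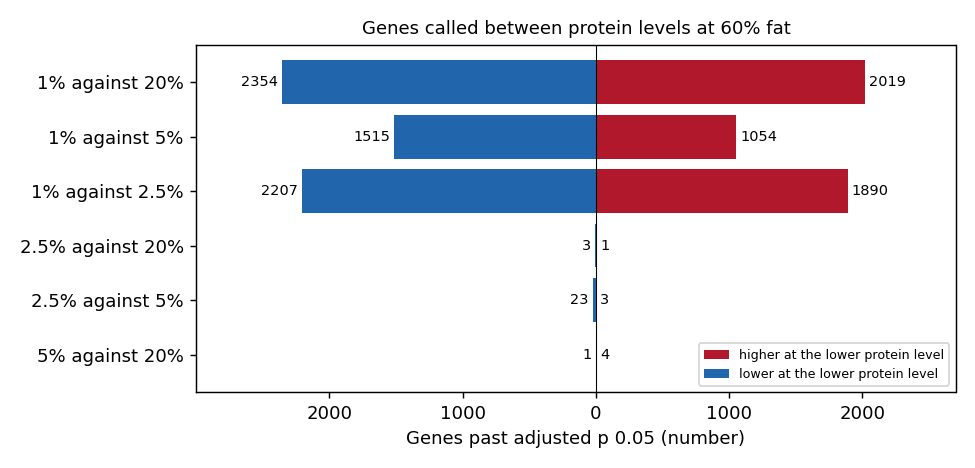
Number of genes past an adjusted p of 0.05 (horizontal axis) for each pair of protein levels at 60% fat, to the right where the level was higher and to the left where it was lower at the lower protein level. The 3 contrasts that include 1% protein hold 2569 to 4373 genes each, and the 3 without it hold 4 to 26.

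Slopes and departures from them were tested on a linear and a log2 scale of dietary protein. Fitted as the only protein term, a slope in percent protein called 1 gene (0.00614%), Ppp1ca, while 1227 had an unadjusted p under 0.05. A slope in log2 protein called 2 (0.0123%), Gstm7 and Ppp1ca, with 4036 at an unadjusted p under 0.05. In the 4-level fit, 2848 genes (17.5%) departed from the line in percent protein and 1065 (6.54%) from the line in log2 protein. In a fit with the slope alone the departures of the 4 levels from the line count as spread; as trends within the 4-level fit, where they do not, the linear slope called 979 genes (6.01%), 372 of them higher (2.28%) and 607 lower (3.73%) at 1%. The log2 slope then called 3390 (20.8%), 1511 higher (9.28%) and 1879 lower (11.5%). So in the 4-level fit departure was called more often than slope on the linear scale and less often on the log2 scale. Both log2 counts changed with single libraries. Without the second library at 2.5%, the slope fitted alone called 2070 genes and departure 34, and departure was 329 without the first at 1%, 367 without a count filter, 987 with DESeq2 and 0 with all 16 libraries, with or without the 2 that carry cortex markers. With DESeq2 the slope called 799. Departure from the linear slope was 1110 to 3287 with each library left out. In all, 3342 genes (20.5%) differed anywhere among the 4 levels, or 1295 without the first library at 1% and 1853 without the second. Among the 3342, the log2 line accounted for more of the variation between the 4 means than the linear one in 3243 (97.0%, against 76.1% of all genes tested). The median share of that variation (R squared) was 0.288 for the linear line, 0.553 for the log2 line and 0.912 for a step between 1% and 2.5%. Gstm7, which encodes a glutathione transferase, was the gene nearest to an even log2 gradient by the slope test: its libraries stood at 54.5 and 51.5 CPM at 1%, 43.3 and 42.1 at 2.5%, 40.5 and 40.6 at 5% and 34.4 and 33.4 at 20%. Its libraries at 2.5% and 5% lay between those at 1% and 20% without overlap of either end, and 51.5% of the log2 difference between 20% and 1% had been reached at 2.5% and 40.0% at 5%. The slope call for Gstm7 was lost in 7 of 8 fits that left out 1 library, with adjusted p up to 0.248.

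Each gene's 4 means were also set against 5 one-term codings, namely a line in percent protein, a line in log2 protein, and a step at each of the 3 gaps between levels. Of the 3342 genes, 2448 (73.2%) were closest to a step between 1% and 2.5%, against 36.5% of all tested genes. Without the first library at 1% these were 912 of 1295 (70.4%), and without the second 1406 of 1853 (75.9%). A further 181 (5.42%) were closest to the log2 line, 136 (4.07%) to a step between 2.5% and 5%, 10 (0.299%) to a step between 5% and 20% and 7 (0.209%) to the linear line, while 560 (16.8%) reached an R squared of 0.8 with none. The codings are themselves correlated over the 4 levels (0.982 between the linear line and the step between 5% and 20%, 0.934 between the linear and log2 lines), and 168 genes had a best R squared of 0.75 to 0.8 and 286 one of 0.8 to 0.85. Since the called genes had to differ, these shares describe them and are no test. Of all 16284 genes, 2156 (13.2%) had means in strictly rising or falling order over the 4 levels, and 508 of the 3342 did (15.2%).

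Single genes show what each shape looks like. Apod, a lipid-binding secreted protein, stood at 534 and 583 CPM at 1%, 329 and 331 at 2.5%, 423 and 396 at 5% and 334 and 296 at 20%: the libraries at 1% lay far above the rest, and those at 5% above those at 2.5% and 20%. For Apod, the log2 difference of 1% from 20% was 0.83 ± 0.06 (SE), edgeR adjusted p = 2.35e-05. Fbln5, an elastic fibre protein, had 59.9 and 55.7 CPM at 1%, 28.7 and 25.6 at 2.5%, 36.9 and 30.5 at 5% and 24.9 and 24.2 at 20%, and 11.5% of its log2 difference had been reached at 2.5%. Along the log2 line, Pvalb, the calcium-binding protein of fast-spiking neurons, had 94.4 and 96.4 CPM at 1%, 70.9 and 70.7 at 2.5%, 68.6 and 72.6 at 5% and 58.6 and 62.1 at 20%. Its libraries at 2.5% and 5% overlapped each other and lay between the ends. Ednrb, an endothelin receptor of astrocytes and vessels, fell from 20% to 1% with 62.3 and 60.9 CPM at 1%, 77.3 and 82.7 at 2.5%, 76.2 and 71.6 at 5% and 97.2 and 93.4 at 20%. For Ednrb, the log2 difference of 1% from 20% was -0.63 ± 0.06 (SE), edgeR adjusted p = 0.000113. Thbd, the endothelial thrombomodulin, had 4.93 and 4.77 CPM at 1%, 9.1 and 11.8 at 2.5%, 12.7 and 18.5 at 5% and 16.2 and 20.6 at 20%, an ordered fall in which only 5% and 20% overlapped. Of the genes closest to a step between 5% and 20%, Hapln2 and Mobp are oligodendrocyte genes. Hapln2 had 101 and 100.3 CPM at 1%, 85.4 and 92.8 at 2.5%, 90.0 and 105 at 5% and 82.4 and 69.4 at 20%, so that both libraries at 20% lay below all others. For Hapln2, the log2 difference of 1% from 20% was 0.41 ± 0.09 (SE), edgeR adjusted p = 0.00453. Mobp was at 1630.3 and 1656 CPM at 1%, 1530.0 and 1638 at 2.5%, 1708 and 1696 at 5% and 1509 and 1393 at 20%, and its call for 1% against 20% (log2 0.18, edgeR adjusted p = 0.0194) was lost in 3 of 8 fits that left out 1 library. The linear line was closest for Socs3, a feedback inhibitor of leptin and cytokine signalling, at 2.38 and 2.66 CPM at 1%, 2.64 and 3.04 at 2.5%, 3.05 and 3.25 at 5% and 4.55 and 4.98 at 20%. Both libraries at 20% lay above the other 6, among which the levels differed little.

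**Figure D2:**
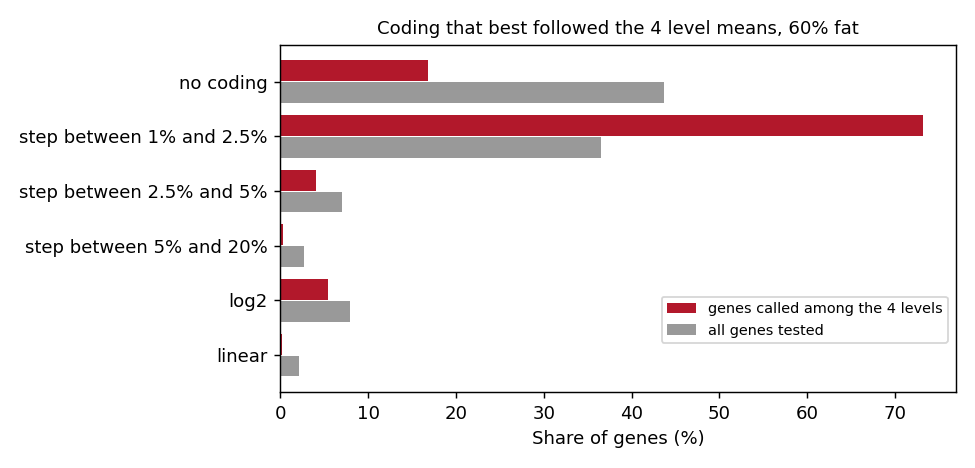
Share of genes (horizontal axis, percent) whose 4 level means were closest to each coding, for the 3342 genes that differed among the 4 levels and for all 16284 tested. The step between 1% and 2.5% took 73.2% of the called genes and 36.5% of all genes.

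The appetite peptides of the arcuate nucleus changed in opposite directions at 1% protein. Npy stood at 56.1 and 57.2 CPM at 1%, 25.9 and 25.4 at 2.5%, 26.3 and 19.9 at 5% and 15.1 and 21.3 at 20%. Both libraries at 1% were about level with each other and above all others, while both at 2.5% lay above both at 20% and those at 5% overlapped each of these levels; the difference between 1% and 20% was 3.12-fold (log2 1.64 ± 0.14 (SE), edgeR adjusted p = 3.8e-05), and that between 1% and 2.5% log2 1.14 (edgeR adjusted p = 0.000321). At 2.5% Npy had log2 0.50 ± 0.14 (SE) against 20%, with an adjusted p of 0.514. Pomc went the other way, with 13.5 and 11.3 CPM at 1%, 35.3 and 29.7 at 2.5%, 34.2 and 39.8 at 5% and 41.6 and 46.3 at 20%. Its libraries at 1% were 3.54-fold below those at 20% (log2 -1.82 ± 0.12 (SE), edgeR adjusted p = 9.69e-06) and did not overlap any other, and the libraries at 2.5% and 5% overlapped each other and lay below both at 20%. Agrp, the partner of Npy in the same neurons, was low, and its means followed the protein level: 6.98 and 6.33 CPM at 1%, 6.35 and 5.49 at 2.5%, 5.11 and 5.47 at 5% and 3.86 and 4.87 at 20%, with overlap between 1% and 2.5%. Its difference of log2 0.61 ± 0.17 (SE), edgeR adjusted p = 0.0158 was lost without the first library at 1% (0.0913), without the first at 20% (0.151) and with DESeq2 (0.0637), and its counted span overlaps Ripor1 and Ctcf. Cartpt had 77.2 and 63.7 CPM at 1%, 74.8 and 86.9 at 2.5%, 77.6 and 87.1 at 5% and 84.9 and 112 at 20%, with the first library at 1% overlapping the libraries at 2.5% and just below those at 5%. Its call (log2 -0.48 ± 0.12 (SE), edgeR adjusted p = 0.0108) was lost without the second library at 1% (0.0975), without the second at 20% (0.115) and with DESeq2 (0.0546).

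Other peptide genes differed in where along the series they moved. Hcrt stood at 177 and 162 CPM at 1%, 163 and 195 at 2.5%, 127 and 127 at 5% and 114 and 125 at 20%: all 4 libraries at 1% and 2.5% lay above all 4 at 5% and 20%, with no overlap. It was called for 2.5% against 20% (log2 0.58 ± 0.08 (SE), edgeR adjusted p = 0.0302) as well as for 2.5% against 5% (log2 0.49 ± 0.08 (SE), edgeR adjusted p = 0.0279). Both contrasts cross the diet code series. These calls were lost in 5 and 3 of 8 fits that left out 1 library, with adjusted p up to 0.201 and 0.273. Pmch was highest at 2.5%, with 104 and 93.1 CPM at 1%, 139 and 122 at 2.5%, 94.5 and 88.5 at 5% and 98.8 and 99.7 at 20%; both libraries at 2.5% lay above the other 6, and 1% was not called against 20% (log2 -0.01 ± 0.08, SE). Pmch was called for 2.5% against 5% (log2 0.51 ± 0.07 (SE), edgeR adjusted p = 0.0117), which was lost in 3 of 8 fits that left out 1 library (adjusted p up to 0.133), and its span overlaps Parpbp. Cck, which encodes the satiety peptide cholecystokinin, stood at 82.1 and 93.4 CPM at 1%, 79.2 and 71.9 at 2.5%, 51.4 and 63 at 5% and 57.5 and 55.6 at 20%, with all libraries at 1% and 2.5% above those at 5% and 20% (log2 0.63 ± 0.09 (SE), edgeR adjusted p = 0.000583 for 1% against 20%). Unlike Hcrt, Cck was not called for 2.5% against 5%, where the diet code series also changes. Its libraries at 1% lay above those at 2.5%. Sst, the somatostatin gene, rose more evenly through 266 and 217 CPM at 1%, 181 and 198 at 2.5%, 209.7 and 180.3 at 5% and 153 and 173 at 20%. For Sst, the log2 difference of 1% from 20% was 0.57 ± 0.10 (SE), edgeR adjusted p = 0.00127. Vip, the peptide of the circadian pacemaker nucleus, stood at 4.43 and 2.44 CPM at 1%, 7.21 and 7.17 at 2.5%, 6.58 and 6.82 at 5% and 6.7 and 6.44 at 20%, both libraries at 1% below all others.

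Over the whole lists, 3 of 13 tested genes for feeding-promoting peptides were higher and 1 lower at 1% than at 20% (Npy, Agrp and Hcrt higher, Gpr101, a receptor kept on that list, lower), with a list median of log2 -0.01 beside -0.01 over all genes tested; without the second library at 20%, 5 were higher. Of 17 genes for feeding-restraining peptides, 1 was higher, Cck, and 7 lower, with a median of -0.10, where 12.4% of all tested genes were higher and 14.5% lower. The second list's count moved with single libraries, to 4 higher and 3 lower without the second library at 1%, to 1 and 4 without the first at 20% and to 1 and 2 without the second at 20%. Among 29 appetite receptors, 3 were higher (10.3%) and 5 lower (17.2%), near the 12.4% and 14.5% of all tested genes. The lower ones include Npy2r, a receptor for neuropeptide Y and peptide YY (log2 -0.52 ± 0.11 (SE), edgeR adjusted p = 0.00333), and the cannabinoid receptor gene Cnr1. Cnr1 followed a step between 2.5% and 5%: 66.7 and 63.2 CPM at 1%, 74.6 and 76.9 at 2.5%, 89.8 and 92.2 at 5% and 92.9 and 87.5 at 20%, with no overlap between the 4 lower and the 4 higher libraries. For Cnr1, the log2 difference of 1% from 20% was -0.47 ± 0.06 (SE), edgeR adjusted p = 0.000329. Without the first library at 20% the receptor count was 1 higher and 4 lower. Ramp3, a partner of amylin and adrenomedullin receptors that is also a thalamic marker, stood at 47.9 and 64.2 CPM at 1%, 52.2 and 47 at 2.5%, 26.3 and 36.2 at 5% and 35.9 and 25.6 at 20%. Its step lay between 2.5% and 5%.

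**Figure D3:**
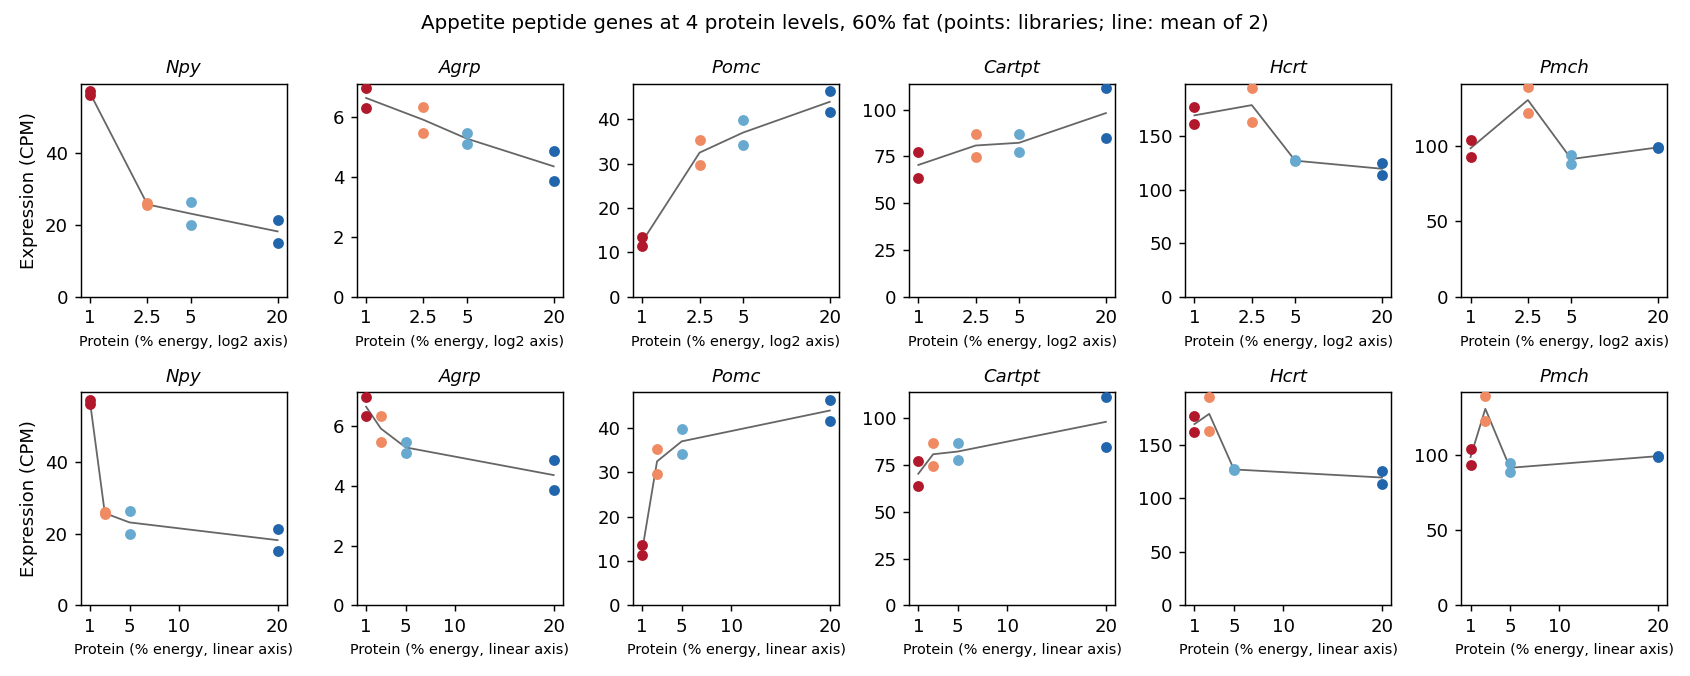
Expression (CPM, vertical axis from 0) of Npy, Agrp, Pomc, Cartpt, Hcrt and Pmch in each library (points) with the mean of 2 (line), against dietary protein on a log2 axis (top) and a linear axis (bottom). Both libraries at 1% lie above all others for Npy and below all others for Pomc, and Hcrt separates 1% and 2.5% from 5% and 20%.

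Targets of the glucocorticoid receptor rose together at 1% protein. Of 27 tested genes on the list, 24 were higher and 0 lower at 1% than at 20% protein, with a median of log2 0.99, where 12.4% of all tested genes were higher and their median was -0.01. The count was 21 for 1% against 2.5% and 16 for 1% against 5%, and between 19 and 25 when any 1 library was left out. Of all tested genes, 11.6% were higher for 1% against 2.5% and 6.47% for 1% against 5%. At the higher protein levels the list called 0 for 2.5% against 20% and 2 for 5% against 20%, Mt1 and Mt2 (0.0307% of all genes were called there). Plin4, a lipid droplet coat protein, had the largest difference, with 65.9 and 111 CPM at 1%, 35.1 and 16.1 at 2.5%, 35.4 and 55.3 at 5% and 13.6 and 13.1 at 20%: 6.59-fold between 1% and 20% (log2 2.72 ± 0.31 (SE), edgeR adjusted p = 0.000182), although its libraries at 1% were far apart and its span overlaps Hdgfl2. Fkbp5, the immunophilin that dampens the receptor, stood at 96 and 135 CPM at 1%, 57 and 41.2 at 2.5%, 54.8 and 65.5 at 5% and 43.9 and 47.8 at 20%, so the libraries at 1% lay above all others and those at 5% overlapped those at 2.5%. For Fkbp5, the log2 difference of 1% from 20% was 1.34 ± 0.15 (SE), edgeR adjusted p = 0.000184. Sgk1, a kinase regulating ion channels, had 274 and 346 CPM at 1%, 139 and 136 at 2.5%, 159 and 227 at 5% and 132 and 83.6 at 20%. For Sgk1, the log2 difference of 1% from 20% was 1.52 ± 0.18 (SE), edgeR adjusted p = 0.00021. Its second library at 5% came nearest to those at 1%. Ddit4, a stress-induced inhibitor of mTOR complex 1, had 92.7 and 111 CPM at 1%, 56.1 and 55.3 at 2.5%, 53.1 and 69 at 5% and 50.03 and 45.5 at 20%. For Ddit4, the log2 difference of 1% from 20% was 1.09 ± 0.11 (SE), edgeR adjusted p = 0.000113. Cdkn1a, the cell cycle inhibitor p21, Hif3a, a hypoxia-inducible factor, and Arrdc2, an arrestin-domain protein, were 4.23-, 3.26- and 3.24-fold higher at 1% than at 20%, with Hif3a at 45.2 and 49.8 CPM at 1%, 24.3 and 13.6 at 2.5%, 24.5 and 30.9 at 5% and 14.4 and 14.7 at 20%. Nr3c1, the gene of the glucocorticoid receptor itself, was lower at 1% (64.7 and 60.9 CPM at 1%, 80.3 and 93.7 at 2.5%, 75.6 and 80.7 at 5% and 86.6 and 78.6 at 20%; log2 -0.40 ± 0.08 (SE), edgeR adjusted p = 0.00356).

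The order of the levels within this list was not that of protein. In 23 of 27 members the means ran 1%, then 5%, then 2.5%, then 20% from high to low, an order held by 9.83% of all tested genes and by 44.5% of the 2019 genes higher at 1%. The mean at 5% exceeded that at 2.5% in 27 of 27 members (8060 of all 16284 genes, and 1410 of the 2019 higher at 1%). Both libraries at 5% lay above both at 20% in 23 of 27 (16.9% of all, and 877 of the 2019). Both at 5% lay above both at 2.5% in 13 of 27 (3454 of all 16284, and 694 of the 2019). By library, the mean log2 deviation of the list from its 8-library mean was -0.04 and 0.23 at 5% and -0.08 and -0.35 at 2.5%. Both libraries at 5% thus lay above both at 2.5%, but the nearest ones, at -0.04 and -0.08, hardly differed. The list's median log2 difference from 20% was 0.96 at 1%, 0.17 at 2.5% and 0.45 at 5%. No member differed between 2.5% and 5% by the test, and that pair also differs in diet code series. At 20% fat the order was otherwise: 5% exceeded 2.5% in 2 of the 27, against 49.9% of all genes. The median difference of 2.5% from 5% was 0.19 there and -0.22 at 60% fat. Without the 2 libraries with cortex markers, 5% again exceeded 2.5% in 2 of the 27, with a median difference of 0.26. A test of the 2.5% to 5% difference by fat level, chosen after the values were seen, called 0 of 16646 genes, with 478 at an unadjusted p under 0.05 and a smallest adjusted p of 1.00; 11 of the 27 members had an unadjusted p under 0.05. Without those 2 libraries it also called 0 (594, 0.786), with 11 of the 27.

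The metallothionein genes Mt1 and Mt2, whose small cysteine-rich proteins bind zinc and copper, were the list members that also differed at 5%. Mt1 stood at 368 and 377 CPM at 1%, 268 and 236 at 2.5%, 290.0 and 284 at 5% and 199 and 206 at 20%, and the groups did not overlap in the order 1%, 5%, 2.5%, 20%. It was 1.84-fold higher at 1% than at 20%. For Mt1, the log2 difference of 1% from 20% was 0.88 ± 0.06 (SE), edgeR adjusted p = 9.69e-06. At 5% it was 1.42-fold higher than at 20% (log2 0.51 ± 0.06 (SE), edgeR adjusted p = 0.00587). Mt2 had 147 and 153 CPM at 1%, 119 and 93.5 at 2.5%, 132 and 129 at 5% and 76.7 and 74.3 at 20%, with 5% above 2.5% and 20% again (log2 0.79 ± 0.09 (SE), edgeR adjusted p = 0.0042 for 5% against 20%). Gpd1, the cytosolic glycerol-3-phosphate dehydrogenase, and Sdc4, a cell surface heparan sulfate proteoglycan, are not on the list and were called with them. Gpd1 stood at 16 and 16.2 CPM at 1%, 10.7 and 10.2 at 2.5%, 14.1 and 14.9 at 5% and 8.09 and 7.79 at 20%. Sdc4 stood at 176 and 177 CPM at 1%, 137 and 121 at 2.5%, 146 and 154 at 5% and 112 and 108 at 20%. For each of the 4 genes all libraries at 5% lay above both at 20%, and both at 1% above all others. With 2 libraries a level, all 4 calls at 5% against 20% were fragile: leaving out either library at 5% raised the adjusted p to 0.110 and 0.0854 for Mt1, 0.0916 and 0.0562 for Mt2, 0.0984 and 0.148 for Gpd1 and 0.117 and 0.272 for Sdc4. Leaving out 1 library at 20% also ended the calls for Mt2 (0.0568 and 0.0643), Gpd1 (0.0745 and 0.139), Sdc4 (0.0932 and 0.345) and, for the first of them, Mt1 (0.0742).

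Mt1 and Mt2 lie next to each other on chromosome 8 of the mouse and are shown here with the stretch around their starts because both moved together at 1% and at 5%. The sequences are RefSeq's for build GRCm38.p6, 250 bases before to 50 bases after the start, at chr8:94178839-94179138 for Mt1 and chr8:94172368-94172667 for Mt2, plus strand. Capitals mark matches, on either strand, to TGCGCNC or TGCACNC, the core letters of the metal response element through which zinc is known to act.
Mt2: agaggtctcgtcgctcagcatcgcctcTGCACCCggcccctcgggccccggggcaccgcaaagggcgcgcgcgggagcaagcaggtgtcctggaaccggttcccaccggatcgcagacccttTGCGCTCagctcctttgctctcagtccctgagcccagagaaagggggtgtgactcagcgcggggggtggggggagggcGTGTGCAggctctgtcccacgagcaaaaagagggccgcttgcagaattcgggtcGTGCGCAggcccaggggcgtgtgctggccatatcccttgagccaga
Mt1: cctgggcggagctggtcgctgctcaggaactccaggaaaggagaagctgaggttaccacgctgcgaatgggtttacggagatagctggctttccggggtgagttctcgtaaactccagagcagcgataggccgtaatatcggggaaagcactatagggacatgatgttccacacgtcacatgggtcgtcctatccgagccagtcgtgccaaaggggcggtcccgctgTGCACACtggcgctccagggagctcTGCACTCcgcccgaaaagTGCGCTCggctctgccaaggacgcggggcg
Mt2 held 4 matches and Mt1 3. Of 32851 promoters of the same length, 8444 (25.7%) held at least 1, 1.97% at least 3 and 0.517% at least 4. A match describes the letters only; no binding was measured.

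**Figure D4:**
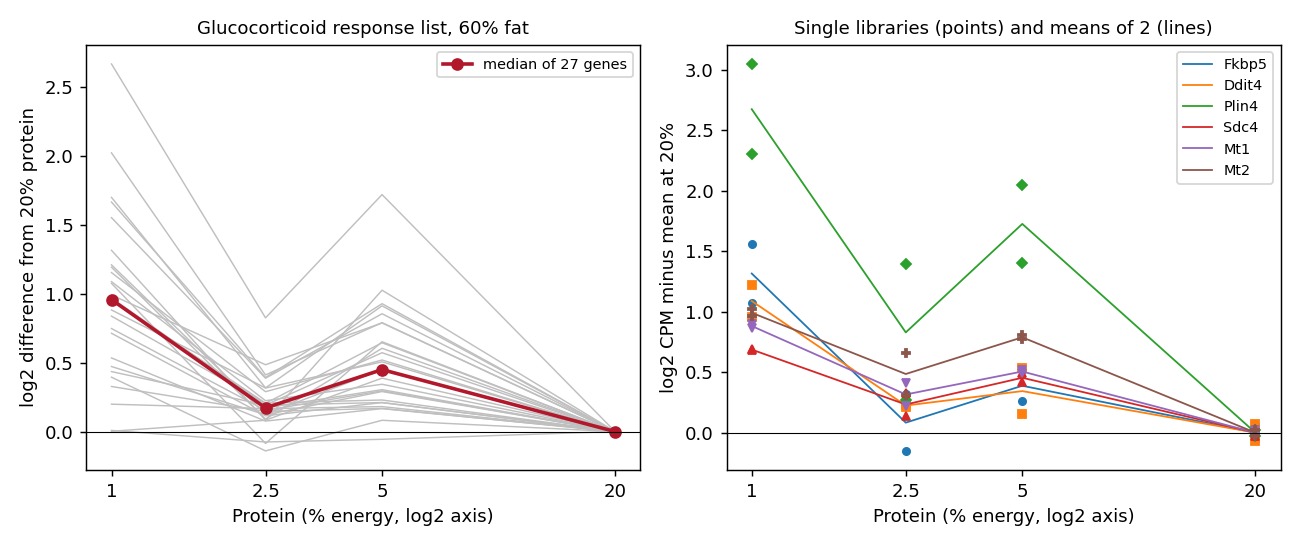
Left, log2 difference from 20% protein (vertical axis) of each of the 27 glucocorticoid response genes (grey) and their median (red) against protein on a log2 axis; right, log2 CPM of single libraries minus the mean at 20% for Fkbp5, Ddit4, Plin4, Sdc4, Mt1 and Mt2. The median is 0.96 at 1%, 0.17 at 2.5% and 0.45 at 5%.

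Some genes of amino acid supply rose at 1%. Of 45 tested genes of the ATF4 and amino acid response, 18 were higher (40.0%) and 5 lower (11.1%) at 1% than at 20% (median log2 0.19), against 12.4% and 14.5% of all tested genes. The counts were 14 and 5 for 1% against 2.5%, beside 11.6% and 13.6% of all tested genes, and 0 were called for 2.5% or 5% against 20%. Of the 19 that differed among the levels, 15 were closest to the step between 1% and 2.5%, as were 73.2% of all called genes. Psat1, an enzyme of serine synthesis, stood at 214 and 213 CPM at 1%, 170.4 and 158 at 2.5%, 179 and 181 at 5% and 152 and 149 at 20%, the libraries at 1% above all others and those at 20% below all others. For Psat1, the log2 difference of 1% from 20% was 0.50 ± 0.06 (SE), edgeR adjusted p = 0.000151. Gpt2, a mitochondrial alanine aminotransferase, had 124 and 140.4 CPM at 1%, 104 and 86.5 at 2.5%, 102 and 106 at 5% and 85.7 and 89.4 at 20%. For Gpt2, the log2 difference of 1% from 20% was 0.59 ± 0.08 (SE), edgeR adjusted p = 0.000475. Aars, the alanyl-tRNA synthetase, had 356 and 337 CPM at 1%, 275 and 278 at 2.5%, 295 and 286 at 5% and 271 and 285 at 20% (log2 0.32 ± 0.05 (SE), edgeR adjusted p = 0.00108), with overlap between 2.5% and 20%. The other tRNA synthetases higher at 1% were Gars, Wars, Sars, Nars and Yars, and Asns, Phgdh, Psph and Pycr1 of amino acid synthesis were also higher; the members lower at 1% were Aldh1l2, Vldlr, Nupr1, Cebpg and Hspa5, the last an endoplasmic reticulum chaperone. Ddit4 stands on this list as well as on the glucocorticoid list. Of 31 amino acid transporters, 6 were higher and 3 lower (median 0.04), against 12.4% and 14.5% of all tested genes. In either direction 29.0% were called against 26.9%, which is near the background. Slc3a2, the heavy chain shared by several exchangers, rose at 1% with 208 and 215 CPM at 1%, 169 and 175 at 2.5%, 169 and 180.5 at 5% and 169.6 and 176 at 20%. For Slc3a2, the log2 difference of 1% from 20% was 0.29 ± 0.06 (SE), edgeR adjusted p = 0.00267. Slc7a8, a light chain that pairs with it, was higher by 0.38 ± 0.08 on the log2 scale. Slc7a11, the cystine-glutamate exchanger, was lower at 1%, at 22.4 and 22.7 CPM at 1%, 33.8 and 45.5 at 2.5%, 32.5 and 36.5 at 5% and 41.1 and 45 at 20%. For Slc7a11, the log2 difference of 1% from 20% was -0.93 ± 0.12 (SE), edgeR adjusted p = 0.000323. Slc7a2, an arginine and lysine carrier, fell along the log2 line with 19.4 and 18.4 CPM at 1%, 24 and 21.4 at 2.5%, 25.1 and 27.2 at 5% and 28.6 and 26.2 at 20%.

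Mtor itself did not change by the test: it stood at 178 and 179 CPM at 1%, 162 and 161 at 2.5%, 172 and 169 at 5% and 175 and 171 at 20%. For Mtor, the log2 difference of 1% from 20% was 0.05 ± 0.05 (SE), edgeR adjusted p = 0.541. Its libraries at 2.5% were the lowest, and its span overlaps Angptl7. Of 54 tested genes for mTOR complex subunits and regulators, 10 were higher and 4 lower at 1% than at 20% (median log2 0.03), against 12.4% and 14.5% of all tested genes. In either direction 25.9% were called against 26.9%, which is at the background. The 10 higher were Akt1, Akt1s1, Ddit4, Lamtor1, Prr5, Rragc, Sec13, Sesn1, Sesn2 and Stk11. Of these, Ddit4 and the sestrins restrain mTOR complex 1, and Lamtor1 and Rragc help to recruit it to lysosomes. Prr5, a subunit of mTOR complex 2, had 39.3 and 39.8 CPM at 1%, 31.8 and 29.7 at 2.5%, 32 and 35.4 at 5% and 31.9 and 31.5 at 20%. For Prr5, the log2 difference of 1% from 20% was 0.32 ± 0.08 (SE), edgeR adjusted p = 0.00932. Its call was lost without the first library at 20%, with a log2 difference of 0.33. Rictor, the defining subunit of the same complex, was lower at 1% with 42.3 and 44.7 CPM at 1%, 57.3 and 59.9 at 2.5%, 53.3 and 53.2 at 5% and 60.1 and 53.5 at 20%. For Rictor, the log2 difference of 1% from 20% was -0.39 ± 0.07 (SE), edgeR adjusted p = 0.00246. Fnip1, a folliculin partner in amino acid sensing, was lower with 18.9 and 24 CPM at 1%, 32.1 and 36.8 at 2.5%, 30.6 and 35.4 at 5% and 38.7 and 30.1 at 20%. The count for the complexes depended on single libraries, falling to 1 higher and 4 lower without the first library at 20% and to 6 and 3 without the first at 1%. Of 24 genes downstream of mTOR complex 1, 7 were higher (29.2%) and 4 lower (16.7%), against 12.4% and 14.5% of all tested genes (4 and 3 without the first library at 20%, 4 and 4 without the first at 1%). Eef2, translation elongation factor 2, had 2045 and 2032 CPM at 1%, 1676 and 1713 at 2.5%, 1822 and 1801 at 5% and 1705 and 1774 at 20%. For Eef2, the log2 difference of 1% from 20% was 0.23 ± 0.04 (SE), edgeR adjusted p = 0.00222. Eif4b, a helicase cofactor, had 328 and 309 CPM at 1%, 263 and 255 at 2.5%, 273 and 265 at 5% and 251 and 264 at 20%, again with both libraries at 1% above the rest. Rps6kb1, the S6 kinase that mTOR activates, was lower at 24.6 and 32.2 CPM at 1%, 41.6 and 45.7 at 2.5%, 36.2 and 39.5 at 5% and 44.3 and 39.6 at 20%. For Rps6kb1, the log2 difference of 1% from 20% was -0.56 ± 0.11 (SE), edgeR adjusted p = 0.00303. Rb1cc1, an autophagy initiation protein, was also lower, at 18.8 and 31 CPM at 1%, 49.1 and 61.6 at 2.5%, 46.8 and 45.9 at 5% and 58.2 and 42.2 at 20%. These are transcript levels; phosphorylation, by which the pathway signals, was not measured.

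Some genes of fat use were higher and some of sterol synthesis lower at 1%, while most members of either list did not pass; the lists were not compared by a test. Of 32 tested genes of fatty acid and ketone metabolism, 9 were higher and 2 lower at 1% than at 20% (median log2 0.11), against 12.4% and 14.5% of all tested genes. In either direction 34.4% were called against 26.9%. Pnpla2, the adipose triglyceride lipase, stood at 90.1 and 112 CPM at 1%, 66.3 and 56.8 at 2.5%, 66.1 and 70.8 at 5% and 49.98 and 50.1 at 20%. For Pnpla2, the log2 difference of 1% from 20% was 1.02 ± 0.10 (SE), edgeR adjusted p = 0.000103. Angptl4, which inhibits lipoprotein lipase, had 14.7 and 16.1 CPM at 1%, 8.45 and 8.04 at 2.5%, 11.9 and 10.7 at 5% and 6.27 and 7.25 at 20% and took the order 1%, 5%, 2.5%, 20% without overlap. For Angptl4, the log2 difference of 1% from 20% was 1.19 ± 0.13 (SE), edgeR adjusted p = 0.000132. Fabp7, a fatty acid-binding protein of glia and tanycytes, was lower at 1% with 8.3 and 6.71 CPM at 1%, 20.7 and 26.3 at 2.5%, 15.6 and 13.5 at 5% and 19.9 and 19.6 at 20%. For Fabp7, the log2 difference of 1% from 20% was -1.39 ± 0.14 (SE), edgeR adjusted p = 0.000113. The count of lower genes, Fabp7 and Cd36, was 1 in 7 of the 8 fits that left out 1 library. The order 1%, 5%, 2.5%, 20% was held by 12 of the 32 genes, against 9.83% of all tested genes and 44.5% of the 2019 higher at 1%. Plin4, which the glucocorticoid list holds too, was among the 12. Of 35 genes of cholesterol and fatty acid synthesis, 0 were higher and 11 lower (median -0.09). These 31.4% lower stand beside 14.5% of all tested genes. The mean exceeded that at 20% in 2 of the 35 at 2.5% and in 6 at 5%, beside 8352 and 8048 of all 16284 tested genes. Elovl6, a fatty acid elongase, had 47.8 and 56.6 CPM at 1%, 68.9 and 71 at 2.5%, 61.2 and 65.1 at 5% and 71.9 and 73.3 at 20%. For Elovl6, the log2 difference of 1% from 20% was -0.48 ± 0.08 (SE), edgeR adjusted p = 0.00109. Scd1, the stearoyl-CoA desaturase, fell along the log2 line with 277 and 300.0 CPM at 1%, 340.1 and 327 at 2.5%, 319.6 and 332 at 5% and 381 and 355 at 20%. For Scd1, the log2 difference of 1% from 20% was -0.35 ± 0.06 (SE), edgeR adjusted p = 0.00101. Hmgcs1, the HMG-CoA synthase of the cholesterol pathway, had 159.6 and 173 CPM at 1%, 196 and 201 at 2.5%, 199 and 183 at 5% and 210.3 and 205 at 20%. The 11 became 4 without the first library at 1% and 6 without the first at 20%.

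Many genes for ribosomal proteins and nuclear-encoded respiratory subunits were higher at 1%, and mitochondrially encoded ones were lower. Of 77 tested genes for cytosolic ribosomal proteins, 43 were higher (55.8%) and 0 lower (median log2 0.25), against 12.4% and 14.5% of all tested genes. Rpl8, of the large subunit, stood at 495 and 472 CPM at 1%, 385 and 399 at 2.5%, 402 and 378 at 5% and 363 and 392 at 20%. For Rpl8, the log2 difference of 1% from 20% was 0.36 ± 0.06 (SE), edgeR adjusted p = 0.000772. Rplp0, of the stalk, stood at 193 and 192 CPM at 1%, 144 and 137 at 2.5%, 152 and 148 at 5% and 135 and 145 at 20%. For Rplp0, the log2 difference of 1% from 20% was 0.46 ± 0.06 (SE), edgeR adjusted p = 0.000277. In each, both libraries at 1% lay above the rest. Ribosomal protein genes have many near-identical copies, so their counts are uncertain. Of 78 nuclear genes of the respiratory chain, 37 were higher (47.4%) and 4 lower (5.13%; median 0.21), Ndufv1 and Ndufv3 of complex I among the higher, with 0.30 ± 0.06 and 0.41 ± 0.07 on the log2 scale. Of 12 tested genes of the mitochondrial genome, 0 were higher and 10 lower (median -0.71), again beside 12.4% and 14.5% of all tested genes. All 9 that differed among the 4 levels were closest to the step between 1% and 2.5% (73.2% of all called genes). The ribosomal count was 19 without the first library at 20% and 22 without the first at 1%, and the respiratory count 12 higher with 0 lower and 23 with 1. With all 16 libraries in the fit, the ribosomal list had 5 genes higher, the respiratory list 1 and the mitochondrial list 1 lower; without the 2 libraries with cortex markers these were 26, 20 and 8. The genes lower at 1% were long, with a median counted length of 47567 bases against 14421 for those higher and 22897.5 for all tested genes, which touches these lists and the next. With the trend along gene length removed from each library, 4419 genes passed for 1% against 20%, and 54.7% of the calls were higher at 1% against 46.2% before.

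Many receptor genes and some chaperone genes were lower at 1%. Of 38 tested GABA and glutamate receptor genes, 17 were lower (44.7%) and 5 higher (13.2%; median log2 -0.22), where 14.5% of all tested genes were lower and 12.4% higher; the counts were 15 and 8 with the length trend removed; the 5 became 2 without the second library at 1% and 3 without the first at 20%. Gabra2 and Gabrg1, subunits of the GABA-A receptor, changed by -0.97 ± 0.12 and -0.85 ± 0.10 on the log2 scale. Gabra2 had 44.7 and 57.3 CPM at 1%, 89.5 and 109.7 at 2.5%, 87.7 and 87.4 at 5% and 111 and 89.1 at 20%, the libraries at 1% below all others. Gabrd, a subunit of receptors outside the synapse, was higher and took its step between 2.5% and 5%, with 32.3 and 52 CPM at 1%, 28.4 and 29.5 at 2.5%, 15.3 and 22.5 at 5% and 19.9 and 16.8 at 20%. For Gabrd, the log2 difference of 1% from 20% was 1.202 ± 0.19 (SE), edgeR adjusted p = 0.00101. Of 29 chaperone genes, 7 were lower and 1 higher (median -0.11), against 14.5% and 12.4% of all tested genes. In either direction 27.6% were called against 26.9%. The number higher was 2 without the second library at 20% and 0 without the second at 1% or the first at 20%. Hsp90aa1, which also holds the unliganded glucocorticoid receptor, had 179 and 191 CPM at 1%, 305 and 365 at 2.5%, 281 and 275 at 5% and 328 and 279 at 20%. For Hsp90aa1, the log2 difference of 1% from 20% was -0.72 ± 0.09 (SE), edgeR adjusted p = 0.000215. Hsp90b1, its relative in the endoplasmic reticulum, had 99.7 and 98.6 CPM at 1%, 147 and 175 at 2.5%, 144 and 149.5 at 5% and 172 and 149.8 at 20%. For Hsp90b1, the log2 difference of 1% from 20% was -0.70 ± 0.08 (SE), edgeR adjusted p = 0.000206. In both, the libraries at 1% lay far below the other 6. Immediate early genes, which report recent neuronal activity, passed the test rarely: 1 of 21 was higher, Dusp1, and 1 lower, Nr4a2, against 1 and 5 without the first library at 20% and 2 and 0 without the second.

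Many markers of vessels and of the neighbouring thalamus and some MHC class II genes differed between 1% and 20%, where 12.4% of all tested genes were higher and 14.5% lower. Of 14 endothelial markers, 9 were lower and 2 higher at 1% than at 20%, summing to 317 to 342 CPM at 1%, 325 to 336 at 2.5%, 362 to 447 at 5% and 347 to 367 at 20%. With 1 or 2 higher, the count of 9 lower was 6 without the first library at 1% or the first at 20%, 5 without the second at 1% and 7 without the second at 20%. Of the 11 endothelial markers that differed among the levels, 5 were closest to the step between 1% and 2.5% and 2 to that between 2.5% and 5%. Of all called genes 73.2% and 4.07% were. Of 18 mural and fibroblast-like markers, 11 were lower and 1 higher; they summed to 286 to 348 CPM at 1%, 313 to 378 at 2.5%, 433 to 474 at 5% and 438 to 453 at 20%, with no overlap between the lower and the upper 4 libraries. Of the 14 of them that differed among the levels, 10 were closest to the step between 2.5% and 5%, a shape taken by 4.07% of all genes called. Bgn, the proteoglycan biglycan of the vessel wall and meninges, had 12.7 and 10.7 CPM at 1%, 11.3 and 14.2 at 2.5%, 24.5 and 22.8 at 5% and 21.7 and 20.9 at 20% (log2 -0.89 ± 0.12 (SE), edgeR adjusted p = 0.00953 for 2.5% against 5%). The Bgn call did not hold in every fit that left out 1 library, where its log2 difference was -1.07 to -0.738. Mgp, matrix Gla protein, had 12 and 9.27 CPM at 1%, 9.47 and 13.1 at 2.5%, 24.1 and 22.6 at 5% and 16.9 and 18.3 at 20%. Prg4, a lubricating glycoprotein whose span overlaps Tpr, was 3.62-fold lower at 1% than at 20%, at 3.32 and 2 CPM at 1%, 3.77 and 5.65 at 2.5%, 7.83 and 9.75 at 5% and 9.21 and 10.1 at 20%. Of 8 genes of MHC class II presentation, 5 were lower and 0 higher. H2-Ab1, a class II chain, stood at 0.997 and 0.999 CPM at 1%, 1.61 and 3.15 at 2.5%, 4.51 and 3.57 at 5% and 4.18 and 3.73 at 20%. For H2-Ab1, the log2 difference of 1% from 20% was -1.98 ± 0.31 (SE), edgeR adjusted p = 0.000802. The invariant chain gene Cd74 stood at 4.15 and 4.16 CPM at 1%, 5.11 and 9.67 at 2.5%, 9.57 and 9.1 at 5% and 8.79 and 8.71 at 20%. In both, the libraries at 2.5% were unequal, the first nearer to 1% and the second to 5% and 20%. The count of lower class II genes fell without the second library at 1% or the first at 20%. All 4 class II genes that differed among the levels were closest to the step between 1% and 2.5%, as were 73.2% of all called genes. Of 11 microglial markers, 1 was higher and 1 lower, and of 7 blood markers 0 and 1. Of 11 thalamic markers, 7 were higher and 1 lower, summing to 1186 to 1474 CPM at 1%, 1272 to 1283 at 2.5%, 814 to 1049 at 5% and 916 to 1059 at 20%; 5 of the 10 that differed were closest to the step between 2.5% and 5%. Mural and fibroblast-like markers were higher at 5% than at 2.5% in 17 of 18 at 60% fat and 16 of 18 at 20% fat, or 18 of 18 there without the 2 libraries with cortex markers. Thalamic markers were so in 0 of 11 at 60% fat and 6 of 11 at 20% fat, or 2 of 11 without those libraries. With all libraries kept, 51.1% of all tested genes were so at 60% fat and 49.9% at 20% fat. The part of such marker levels in the step between 2.5% and 5% was not tested.

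**Figure D5:**
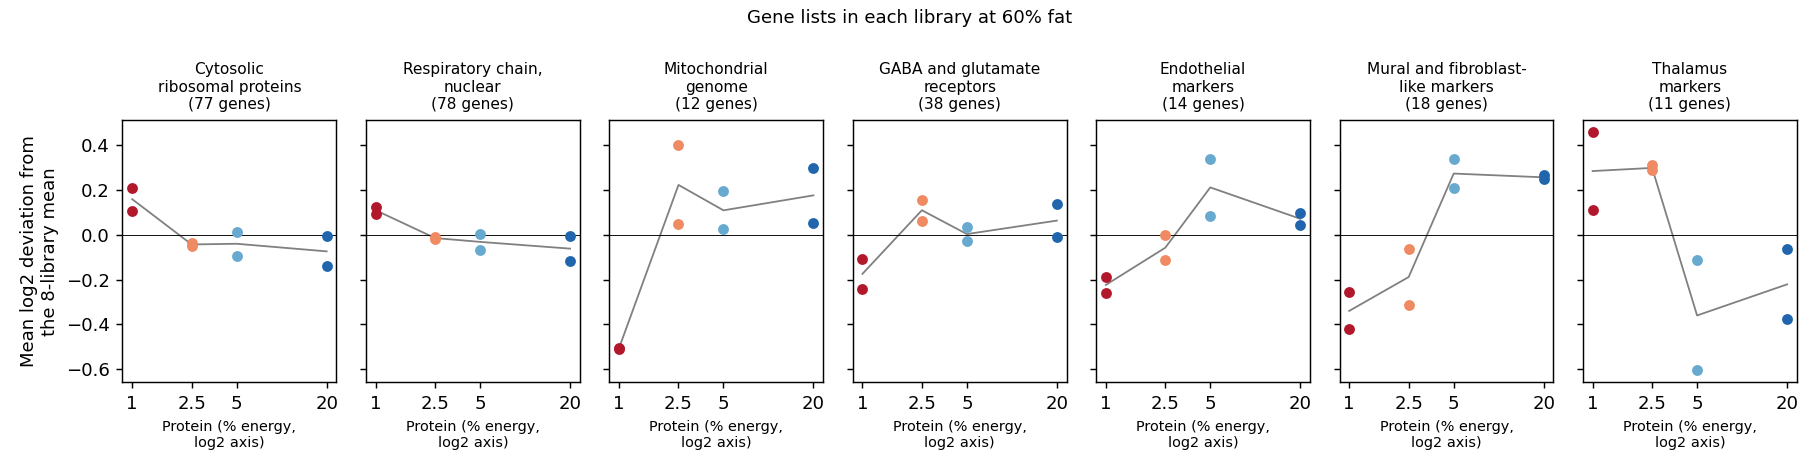
Mean log2 deviation from the 8-library mean (vertical axis) of 7 gene lists in each library (points) with the mean of 2 (line), against protein on a log2 axis. Ribosomal, respiratory, mitochondrial and receptor lists part at 1%, whereas mural and thalamic markers part between 2.5% and 5%.

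The 26 genes called between 2.5% and 5% form a small set of their own. Beyond those already described, they were chosen for naming after their values were seen. Lhx8, a transcription factor of cholinergic neurons of the basal forebrain, was at 7.7 and 9.88 CPM at 1%, 3.88 and 2.99 at 2.5%, 14.5 and 9.64 at 5% and 10.8 and 11 at 20%; both libraries at 2.5% lay below all others (log2 -1.81 ± 0.21 (SE), edgeR adjusted p = 0.00653), and this call held in every fit that left out 1 library. Chat, which makes acetylcholine, and the neurotrophin receptor gene Ngfr, also known from those neurons, were lower at 2.5% with -1.17 ± 0.16 and -0.85 ± 0.12 on the log2 scale. Th, the rate-limiting enzyme of dopamine synthesis, stood at 93.2 and 80.0 CPM at 1%, 70.0 and 83.6 at 2.5%, 144 and 112 at 5% and 102 and 89.8 at 20%. Slc6a3, the dopamine transporter, stood at 97.8 and 98.3 CPM at 1%, 66.5 and 88.9 at 2.5%, 189.8 and 133 at 5% and 122 and 102 at 20%. In both, the libraries at 5% were the highest, and those at 2.5% were low, though for Th they overlapped 1%. Ret, Chrna6, Chrnb3, Slc10a4, En1 and Sv2c, which dopamine neurons of the midbrain are known to express, changed in the same direction. The calls for Th and Slc6a3 were each lost in 2 of 8 fits that left out 1 library, with adjusted p up to 0.273 and 0.120. Summed striatal markers, the list of a nearby region, were 306 to 481 CPM at 1%, 259 to 260 at 2.5%, 277 to 369 at 5% and 292 to 353 at 20%. Crym, a thyroid hormone-binding protein of tanycytes, stood at 18.2 and 33.7 CPM at 1%, 6.14 and 4.73 at 2.5%, 28.1 and 20.0 at 5% and 15.3 and 19.1 at 20% (log2 -2.14 ± 0.27 (SE), edgeR adjusted p = 0.00808). Dio3, which inactivates thyroid hormone, stood at 1.88 and 1.05 CPM at 1%, 0.323 and 0.326 at 2.5%, 1.79 and 1.62 at 5% and 1.18 and 1.35 at 20%, the libraries at 2.5% again the lowest. Gh, the pituitary growth hormone gene, had 0 and 12 counts at 2.5% and 64 and 135 at 5%. The calls for Crym and Gh did not hold in every fit that left out 1 library. Apart from Hcrt and Pmch, the gene higher at 2.5% was Eif2s3y, at 13.6 and 12.3 CPM at 1%, 24.7 and 27.8 at 2.5%, 18.5 and 16.9 at 5% and 24.5 and 23.8 at 20%. Eif2s3y lies on the Y chromosome and was counted in all 8 libraries, while the sex of the animals behind each library is not given. In 16 of the 23 lower genes the means ran 5%, 20%, 1%, 2.5% from high to low, so the contrast joined a high level at 5% to a low one at 2.5%. The contrast called 6 genes without the first library at 2.5% or the first at 5%, 41 without the second at 5%, and 0 with all 16 libraries in the fit.

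Ppp1ca, which encodes a catalytic subunit of protein phosphatase 1, was called in every contrast against 20% and in both slopes, but its counts were all or nothing. It had 119 and 103 counts at 20%, 2 in the second library at 2.5% and 0 in the remaining 5 libraries of the series. At 20% fat it had 104 counts in the first library at 2.5%, 118 in the first at 5% and at most 2 in the other 6. The gene's span overlaps Rad9a, and no fold change is given for it.

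The 20% fat libraries give the same protein contrast in other samples, among them the 2 with cortex markers. Of the 2019 genes higher at 1% than at 20% with 60% fat, 1854 (91.8%) were also higher at 20% fat, and of the 2354 lower, 1751 (74.4%) were also lower; of all 16281 genes with a value in both, 67.6% had the same sign. Without the 2 libraries with cortex markers these shares were 96.1%, 95.2% and 76.1%. The median log2 difference of the higher genes was 0.28 at 60% fat and 0.16 at 20% fat, and that of the lower genes -0.50 and -0.10; without those 2 libraries the values at 20% fat were 0.26 and -0.34. Tested between fat levels, the contrast of 1% against 20% called 0 of 16646 genes in edgeR (1305 at an unadjusted p under 0.05, smallest adjusted p 0.623), and the log2 slope called 0 (887, 0.843). Without the first 20% fat library at 1%, 272 genes passed for 1% against 20% by fat; without the 2 libraries with cortex markers it called 0 (765, 0.899). In a fit of all 16 libraries that took the 8 diets as groups, 707 genes (4.25%) passed at 60% fat and 297 (1.78%) at 20% fat. Without the 2 libraries with cortex markers, 2890 (17.4%) and 941 (5.65%) passed. Npy, scaled over all 16 libraries, stood at 86.4 and 119.7 CPM at 1%, 28.5 and 44.3 at 2.5%, 24.7 and 25.2 at 5% and 19 and 13.6 at 20% with 20% fat. Its difference between 1% and 20% there was log2 2.66 ± 0.23 (SE), against 1.66 ± 0.23 at 60% fat. The 2 differed by -1.01 ± 0.32, with an unadjusted p of 0.00653 and an edgeR adjusted p of 0.623; without the 2 libraries with cortex markers the difference was -0.76 (0.00833 and 0.978). With 20% fat Pomc had 13.7 and 11.8 CPM at 1%, 18.7 and 17.2 at 2.5%, 45.2 and 31.4 at 5% and 58.4 and 43.2 at 20%, and differed by log2 -1.99 between 1% and 20%, against -1.81 at 60% fat. With 20% fat Hcrt had 187 and 101 CPM at 1%, 176 and 113 at 2.5%, 129 and 129.6 at 5% and 143 and 115 at 20%, with the first libraries at 1% and 2.5% above all others and the second below all others. Those second libraries are the 2 with cortex markers; the part of this in the Hcrt level was not tested. Without them, Hcrt differed by log2 0.54 between 1% and 20% at 20% fat (edgeR adjusted p = 0.0281) and by 0.51 at 60% fat (0.00943). In the fit of the 8 diets, at 60% fat, Npy (edgeR adjusted p = 0.00293), Pomc (0.000341), Fkbp5 (0.00433), Mt1 (0.000284), Sdc4 (0.000696) and Psat1 (0.00406) passed for 1% against 20%, and Agrp (0.0703), Cartpt (0.15), Rictor (0.0965) and Rpl8 (0.0736) did not. In a fit of the genes tested in the 8 libraries that left out those 2 libraries, Agrp (edgeR adjusted p = 0.0308), Rictor (0.0153) and Rpl8 (0.0199) passed and Cartpt (0.0965) did not.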

How the data were processed

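RNA sequencing libraries of mouse hypothalamus at 60% of energy as fat and 4 protein levels were grouped by the treatment label, with 2 libraries per level. The authors deposited raw gene counts, not normalised, in 1 table for all 16 libraries. Per the submitters' processing notes the tools were FastQC, HISAT2 2.1.0, SAMtools 1.2, featureCounts of Subread 5.0 and edgeR, with build GRCm38. A strand setting was not given in the sources used here; a gene and its antisense partner therefore cannot be told apart. The deposited gene length equalled the whole genomic span, introns included, for 85.5% of 46488 identifiers matched to GENCODE M21. Of 147 named genes, 52 overlap another gene and 22 a coding gene, which makes their counts uncertain: beside those named in the text, Aars, Arhgap6, Atp5a1, Cp, Ctsd, Itgad, Pcsk1n, Pla2g3, Ramp2, Rps14, Rps6kb1, Sepp1, Sqstm1, Thra and Uqcrb are among them.

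Genes were kept by filterByExpr (minimum count 10), libraries were scaled by TMM, and protein as 4 levels was fitted with the quasi-likelihood F test of edgeR 4.0.16 (R 4.3.3), which left 4 residual degrees of freedom. Calls are at a Benjamini-Hochberg adjusted p of 0.05 over all tested genes. Slopes are the log2 change from 20% to 1% protein. CPM values are scaled by the TMM library sizes, and log2 CPM for shapes and orders used a prior count of 2. A coding was assigned at an R squared of at least 0.8.

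Replicate libraries differed by more than counting noise at every level (chi-square per degree of freedom 2.97 to 4.76), so all were kept as separate samples. Members and lists were chosen with earlier results of these data known. Named genes had a proper symbol and a mean of at least 1 CPM: the 10 highest and 10 lowest called changes for 1% against 20%, the 5 and 5 of each other contrast and slope, the 4 of each shape and up to 4 per function list with the smallest p, and 12 genes named in any case (Npy, Agrp, Pomc, Cartpt, Hcrt, Pmch, Mtor, Mt1, Mt2, Ddit4, Fkbp5 and Sgk1). Other members are named without such a rule, after their calls were seen. Alternatives were DESeq2 1.42.0, median-ratio scaling, no count filter, a mean of at least 5 CPM, a replicate block, a term for the diet code, all 16 libraries, each library left out, and removal of a length trend (loess span 0.4). Added after seeing the data were the slopes as trends in the 4-level fit, the fits without both libraries at 1%, those of all libraries but the 2 at 20% fat with cortex markers, and the test of 2.5% against 5% by fat. The steps were tested on simulated counts.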

Additional observations from a re-analysis of the deposited data

How the results depend on the processing

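Where shapes were derived anew, the step between 1% and 2.5% kept the largest share of the called genes, 63.5% to 76.9%, but counts moved. With all 16 libraries, without the 2 with cortex markers and with DESeq2, each gene kept its shape from the main fit. Those settings changed only which genes were called, with shares of 63.0%, 77.3% and 76.9%, and do not test the shape. With all 16 libraries in the fit, calls numbered 73 for any difference (46 of them closest to the step between 1% and 2.5%), 816 for 1% against 20%, 18 for 1% against 5%, 197 for 1% against 2.5%, 1 for 5% against 20%, 0 for 2.5% against 20% and against 5%, 0 for either slope, 7 for departure from the linear and 0 for departure from the log2 slope. Without the 2 libraries at 20% fat with cortex markers, chosen after seeing the data, that fit called 1345 (1040 closest to the step), 2900, 638, 2513, 1, 0 and 2 for the same contrasts, 0 for the linear and 2 for the log2 slope, 785 for departure from the linear and 0 for departure from the log2 slope. With DESeq2 they were 13 for 2.5% against 20%, 10 for 5% against 20%, 51 for 2.5% against 5%, 2 for the linear and 799 for the log2 slope. Without a count filter, 2.5% against 20% called 1, 2.5% against 5% 12 and departure from the log2 slope 367. At a mean of at least 5 CPM, which tests fewer genes, 2.5% against 20% and both slopes called 0 and 5% against 20% 3. With the length trend removed, 2.5% against 20% called 9 and 2.5% against 5% 46. Without both libraries at 1%, any difference called 31, 2.5% against 20% 10, 5% against 20% 8 and 2.5% against 5% 48. As trends within the 4-level fit the slopes called 979 (linear) and 3390 (log2), and with a term for the diet code the log2 slope called 5.

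With each library left out in turn, the lone library of its level being assumed to vary like the others, calls ranged from 1295 to 3643 for any difference, 1863 to 4241 for 1% against 20%, 2 to 10 for 2.5% against 20%, 1 to 8 for 5% against 20%, 434 to 2852 for 1% against 5%, 1377 to 4328 for 1% against 2.5%, 6 to 48 for 2.5% against 5%, 1 to 3 for the linear slope, 1 to 2070 for the log2 slope, 1110 to 3287 and 34 to 1757 for departure from the linear and log2 slopes, 912 to 2313 for genes closest to the step between 1% and 2.5%, and 0 to 272 for 1% against 20% by fat.

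Same-numbered replicates did not deviate together between levels (correlations -0.13 to 0.01), so the numbers do not pair the samples. With the replicate block, 1% against 20% called 3844 genes, any difference 2668, the log2 slope 1 and departure from the log2 slope 548.

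Of 386 results for single named genes, 375 kept direction and call with the length trend removed, 385 with median-ratio scaling, 368 with the block, 114 with all 16 libraries and 287 without the 2 with cortex markers. Only Pmch changed sign: for 1% against 20% it was log2 -0.01, and -0.0940 to 0.0776 with each library left out, the highest without the second library at 1%, and it was called in none of these. Precision is limited by 2 libraries per level, and depth was nearly equal in all 8.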

Other observations

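Some clock genes and genes of prohormone processing also changed at 1%. Of 17 tested clock genes, 7 were higher (41.2%) and 2 lower (11.8%) at 1% than at 20%, against 12.4% and 14.5% of all tested genes; Clock, a core activator, stood at 41.4 and 45.4 CPM at 1%, 65.3 and 74.5 at 2.5%, 64.8 and 64.3 at 5% and 71 and 63.1 at 20%. For Clock, the log2 difference of 1% from 20% was -0.63 ± 0.08 (SE), edgeR adjusted p = 0.000341. Per1, a period gene that glucocorticoids also induce, had 133 and 147 CPM at 1%, 105 and 89.3 at 2.5%, 108 and 118 at 5% and 99.6 and 114 at 20%, and its call was lost without the first library at 20% (edgeR adjusted p = 0.0688). The clock count was 5 and 1 without the first library at 1%, 3 and 1 without the second, and 2 and 1 without the first at 20%. Of 12 genes that cut and package prohormones, 5 were higher (41.7%) and 1 lower (8.33%). Cpe, carboxypeptidase E, had 2728 and 2629.8 CPM at 1%, 2320.0 and 2462 at 2.5%, 2362 and 2337 at 5% and 2267 and 2241 at 20%. Pcsk2, a prohormone convertase, had 259.5 and 288 CPM at 1%, 252 and 232 at 2.5%, 216 and 218 at 5% and 217 and 213 at 20%. Pcsk1, the convertase that makes the first cuts in pro-opiomelanocortin, was lower at 1% with 32 and 32.1 CPM at 1%, 39.1 and 40.8 at 2.5%, 35.9 and 41.6 at 5% and 40.2 and 41.1 at 20%. Without the first library at 1% or the first at 20% the count of higher genes was 3.

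Of 18 genes of leptin and insulin signalling, 3 were higher (16.7%) and 6 lower (33.3%) at 1%, against 12.4% and 14.5% of all tested genes (1 and 6 without the first library at 20%). Of the 8 that differed among the levels, 7 were closest to the step between 1% and 2.5%, as were 73.2% of all called genes. Foxo1, a transcription factor held out of the nucleus by insulin, stood at 40.6 and 42.7 CPM at 1%, 30.8 and 28.2 at 2.5%, 35 and 32.8 at 5% and 26.4 and 32 at 20%. For Foxo1, the log2 difference of 1% from 20% was 0.52 ± 0.09 (SE), edgeR adjusted p = 0.00195. Of 25 interferon and MHC class I genes, 6 were lower (24.0%) and 0 higher, with 2 lower without the second library at 1%; Ifi27 had 20.7 and 20.5 CPM at 1%, 25.1 and 25.3 at 2.5%, 25.6 and 25.9 at 5% and 26.2 and 26.3 at 20%, with the 6 libraries above 1% within a narrow range. Ttr, transthyretin, an abundant choroid plexus transcript, varied between the libraries of a level, at 88.6 and 29.8 CPM at 1%, 10.8 and 16.8 at 2.5%, 3.37 and 6.39 at 5% and 15 and 4.82 at 20%.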
